A study of Mus musculus with 2 samples.

Results

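A stretch of mouse chromosome 11 was examined in which neighbouring genes had higher RNA levels in one of a pair of striatal cell lines. Its members are the rows of the authors' gene table whose locus is on chromosome 11 and starts between 74.9 and 76.3 Mb on the mm9 build, whatever their test status. This rule took 37 of 23176 rows. The stretch was picked because values of this same contrast were high there, so the levels and fold changes below describe the members and no test of the choice is given. The rows starting within 3 Mb on either side, 77 below and 71 above, serve as flanks.

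The STHdhQ7 line carries the genotype HdhQ7/Q7 and the STHdhQ111 line HdhQ111/Q111, that is, huntingtin alleles with a short and an expanded CAG repeat in both copies. Both lines derive from the striatum at embryonic day 14 on a 129SvEv/CD1 background, were used below passage 15, grew at 33 °C and were moved to 39 °C for 2 days. The lines are known as cells made immortal with a temperature-sensitive viral large T antigen. Each sample title names 3 replicates, the table holds 1 combined FPKM value per line (fragments per kilobase of transcript, scaled to the number of mapped fragments), and each genotype is 1 line, so genotype and line history cannot be told apart. No replicate values were used, so there is no replicate spread and no test could be run on the levels. Where an error is given it is the log2 fold change's standard error as implied by the authors' deposited table (their log2 fold change divided by their test statistic), written SE below. A row with a test is said to be called at a q of 0.05 or less in the authors' deposited table.

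Defining markers of differentiated striatal neurons were near 0 in both lines, so the neuronal roles named below are background and not a description of these cells. Of 6 medium spiny neuron markers 5 were below 0.5 FPKM in both lines, with Drd1a listed at 0 in each, and Penk at 2.85 and 6.49 FPKM. Among 5 neuronal markers 4 were below 0.5 FPKM in both lines. The progenitor factor Sox2 stood at 72.0 FPKM in STHdhQ7 but at 0.561 FPKM in the other line. The 6 mesenchymal markers summed to 976 and 2572 FPKM, and 2 of them, Col1a1 and Col1a2, were called higher in STHdhQ111. Most of the rise in the sum came from these, at 452 and 1487 FPKM and at 11.5 and 533 FPKM. Col3a1, Pdgfrb and Acta2 were not called, with Acta2 lower in STHdhQ111 (342 and 311 FPKM), and Thy1 was near 0 in both lines. All 4 microglial or leukocyte, 3 oligodendrocyte, 3 astrocyte and 3 endothelial markers were below 0.5 FPKM in both lines. The part of these differences in the results below was not tested, and in bulk RNA fewer cells of a type cannot be told apart from less RNA per cell. FPKM over all rows summed to 426021 and 427714, and depth is unknown.

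Neighbouring genes are usually regulated each by its own promoter, but they share chromatin surroundings, and short gaps between divergent starts can serve both genes as a promoter. The orthologous human segment reaches from the 14-3-3 gene YWHAE towards PAFAH1B1, and deletions that cover both cause the brain malformation of Miller-Dieker syndrome. The segment also holds HIC1, a zinc finger repressor gene that is often methylated in tumours, and the microRNAs miR-132, miR-212 and miR-22. In neurons miR-132 and miR-212 are known to be induced by activity.

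The stretch holds 4 microRNA rows, Mir212, Mir132, Mir22 and Mir3971, and all 4 matched the RefSeq microRNA table on GRCm38.p6. The sequences are shown because miR-132-3p and miR-212-3p share 1 seed, so both can pair with the same sites. Capitals mark the seed, bases 2 to 8 from the 5′ end.
mmu-miR-132-3p: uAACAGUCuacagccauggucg
mmu-miR-212-3p: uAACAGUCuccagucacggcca
mmu-miR-22-3p: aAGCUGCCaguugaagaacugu
mmu-miR-3971: cUCCCCACcccuguaccaguga
The other two have seeds of their own. On GRCm38.p6 the miR-132-3p sequence lies on the plus strand at 75173723 to 75173744 of chromosome 11, and miR-212-3p lies at 75173443 to 75173464.

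Promoter sequence is shown for the member that was highest in relation to STHdhQ7 and for the lowest member with a promoter in the RefSeq table, Hic1 and Serpinf1, and for the gap between the starts of the pairs of divergent neighbours in which both genes were called. The first pair of sequences below runs from base 200 to base 101 before the most upstream RefSeq start, read on the gene's own strand. Capitals mark CpG, the dinucleotide at which DNA is methylated.
Hic1: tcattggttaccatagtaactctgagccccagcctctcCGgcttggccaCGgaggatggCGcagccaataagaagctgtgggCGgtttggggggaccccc
Serpinf1: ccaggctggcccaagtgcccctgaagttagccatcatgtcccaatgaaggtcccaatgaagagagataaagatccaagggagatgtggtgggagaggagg
Vps53/Fam57a: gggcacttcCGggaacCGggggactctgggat
Glod4/Rnmtl1: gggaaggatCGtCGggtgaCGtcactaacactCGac
On GRCm38.p6 these are chr11:75170356-75170455 (minus strand) for Hic1, chr11:75422724-75422823 (minus strand) for Serpinf1, chr11:76179639-76179670 (plus strand) for the gap between Vps53 and Fam57a, and chr11:76243700-76243735 (plus strand) for the gap between Glod4 and Rnmtl1. The Hic1 piece holds 4 CpG and the Serpinf1 piece 0. The gaps are 32 and 36 bases long and hold 2 and 4 CpG.

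Of the 37 members 33 had a test in the authors' deposited table. The table called 14 of them higher and 2 lower in STHdhQ111, and 17 were not called. Over all 12740 tested rows the share called higher was 6.35% and the share called lower 7.17%. The rule used this contrast, so nothing is read from the difference between those shares and the members' count. Among the 31 members with a mean of 1 FPKM or more, 26 had a log2 ratio above 0 and 5 did not. The 5 include Mir132, whose 0 in STHdhQ111 is not read as a fall. Doc2b, called lower, has a smaller mean and is not among the 31. Of all 11585 rows with such a mean, 45.6% had a log2 ratio above 0. Nothing is read from this difference either. The log2 ratio of STHdhQ111 over STHdhQ7, computed on FPKM + 0.5, had a median of 1.14 over the 31 members. Its quartiles there were 0.34 and 1.45, and its median over the 11585 rows was -0.05. The whole stretch summed to 904 FPKM in the first line and 1935 FPKM in the second, which is 0.212% and 0.452% of all FPKM.

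The 14 members called higher had FPKM ratios from 2.24 to 40.4 with a median of 2.84. Those with a log2 fold change between 1 and 2 in the authors' deposited table numbered 11, and their ratios ran from 2.24 to 3.61. This window was chosen after the values were seen and sets how far those ratios can spread. The remaining 3, Hic1, Fam101b and Wdr81, rose by ratios of 40.4, 9.44 and 4.12.

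**Figure D1:**
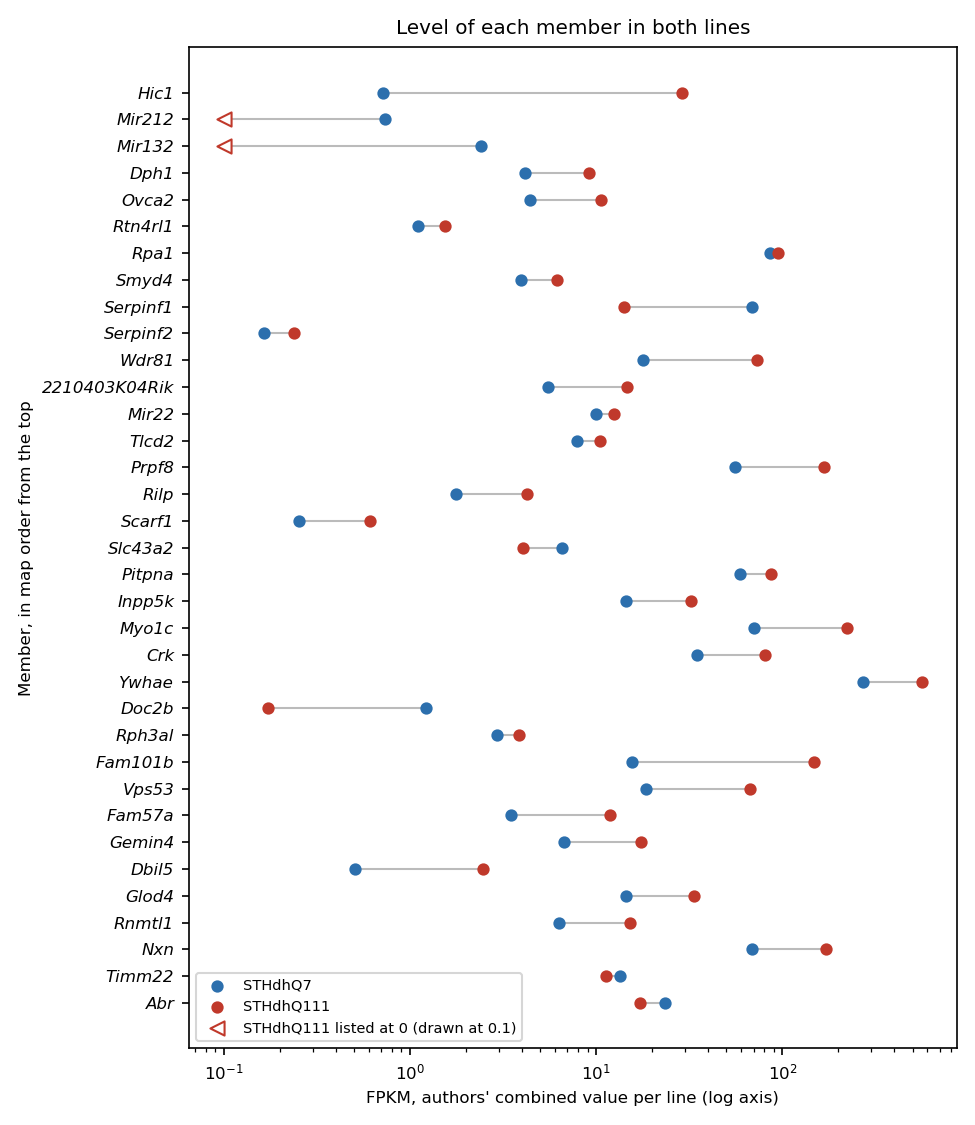
FPKM of the members with a mean of 0.2 FPKM or more in STHdhQ7 (blue) and STHdhQ111 (red) on a log axis, in map order from the top; each point is the authors' single combined value per line, and triangles stand for a value listed at 0. Most red points lie to the right of the blue ones, and Serpinf1, Doc2b, Slc43a2, Timm22, Abr, Mir212 and Mir132 go the other way.

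Hic1, which encodes the repressor named above (mm9 chromosome 11, 74978067 to 74983757), was the steepest. Its level was 0.713 FPKM in STHdhQ7 against 28.8 FPKM in STHdhQ111, near absent in the first line and moderately abundant in the second. For it the authors' deposited table gave 5.34 as log2 fold change, SE 0.56, and the q is listed as 0. The genes next to it on the map did not move as far. Dph1, an enzyme of diphthamide synthesis on elongation factor 2, was listed at 4.12 and 9.19 FPKM and Ovca2, a serine hydrolase gene that overlaps it, at 4.43 and 10.7 FPKM. Neither was called (q = 0.292 and 0.128 in the authors' deposited table). The Dph1 and Ovca2 rows share 1 locus, 74989445 to 75003985, and 33.5% and 57.8% of the 36-base words of their transcripts also occur in other genes' transcripts, so their separate values are uncertain.

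None of the following members at the low end was called higher. Rtn4rl1, a relative of the Nogo receptor, stood at 1.11 and 1.53 FPKM without a call. Rpa1, the large subunit of the single-strand DNA binding complex replication protein A (75113761 to 75161885), was listed at 85.9 and 94.3 FPKM, a ratio of 1.10 and not called. Smyd4, a SET domain gene, stood at 3.93 and 6.15 FPKM, a ratio of 1.56, without a call. Serpinf1, which encodes the secreted neurotrophic and antiangiogenic serpin PEDF (75223531 to 75236125), fell from 68.5 to 14.1 FPKM, 4.86-fold lower. For Serpinf1 the authors' deposited table gave -2.28 as log2 fold change, SE 0.41 (q = 7.72e-07). Serpinf2, the plasmin inhibitor gene beside it, had no test and was listed at 0.164 and 0.239 FPKM. So at this end an abundant gene fell between neighbours that were level or higher.

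Genes of RNA processing rose. Prpf8, the central protein of the spliceosome's catalytic core (75300279 to 75322949), went from 55.8 to 167 FPKM. For it the authors' deposited table gave 1.58 as log2 fold change, SE 0.43 (q = 0.00294). Gemin4, a component of the SMN complex that assembles spliceosomal particles, rose from 6.71 to 17.5 FPKM, and Rnmtl1, a methyltransferase of mitochondrial ribosomal RNA, from 6.28 to 15.2 FPKM. These 3 rose by ratios of 2.99, 2.61 and 2.41, although Prpf8 was the most abundant of them by far on the FPKM scale. Of the 36-base words of Gemin4, 90.3% also occur in other genes' transcripts in GENCODE M21, most of them in those of Glod4 and Fam57a (which share 56.5% and 43.0% of their own words), so reads could have been shared among these neighbours.

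Adaptor, cytoskeletal and lipid signalling genes of the middle of the stretch were in part called higher. Myo1c, a class I myosin that links membranes to actin (75465011 to 75488136), rose from 70.2 to 221 FPKM. For it the authors' deposited table gave 1.66 as log2 fold change, SE 0.45 (q = 0.00306). Crk, an SH2 and SH3 adaptor of integrin and growth factor signalling, rose from 34.9 to 80.2 FPKM (q = 0.0141 in the authors' deposited table), and Inpp5k, an inositol polyphosphate phosphatase, from 14.5 to 32.4 FPKM (q = 0.0209 there). Ywhae, the 14-3-3 epsilon scaffold gene, had the highest FPKM of the stretch in both lines, 273 and 563. Its ratio of 2.07 was near those of its called neighbours, but its q of 0.0771 in the authors' deposited table missed the threshold. Ywhae alone held 30.1% of the stretch's FPKM in STHdhQ7 and 29.1% in STHdhQ111. Pitpna, a phosphatidylinositol transfer protein gene between Slc43a2 and Inpp5k, was listed at 58.9 and 87.0 FPKM, a ratio of 1.48, and was not called.

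Toward the upper end, 2 more genes of this kind rose. Fam101b, now named Rflnb, encodes refilin B, which organises filamin-bound actin (75832697 to 75841284). It went from 15.6 to 148 FPKM (log2 fold change 3.24, SE 0.42 and q = 7.62e-13 by the authors' deposited table). Nxn, which encodes the thioredoxin-like regulator of Wnt signalling nucleoredoxin (76070728 to 76212643), rose from 68.9 to 171 FPKM. The authors' deposited table gave Nxn 1.31 as log2 fold change, SE 0.39 (q = 0.00858).

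Endosome and trafficking genes were mixed. Wdr81, an endosomal maturation factor (75254445 to 75268219), rose from 17.8 to 73.4 FPKM (log2 fold change 2.04, SE 0.40 and q = 7.84e-06 by the authors' deposited table). Vps53, a subunit of the GARP tether that returns endosomal vesicles to the Golgi (75859728 to 75993132), rose from 18.6 to 67.0 FPKM (log2 fold change 1.85, SE 0.39 and q = 3.78e-05 by the authors' deposited table). Rilp, which couples Rab7 lysosomes to dynein, stood at 1.77 and 4.25 FPKM without a call (q = 0.116 in the authors' deposited table). The vesicle release genes of the stretch did not rise. Doc2b, a calcium sensor of neurotransmitter release (75582592 to 75609559), fell from 1.21 to 0.174 FPKM, 6.98-fold lower (log2 fold change -2.80, SE 0.77 and q = 0.00364 by the authors' deposited table). Rph3al, a Rab effector of regulated exocytosis, stood at 2.92 and 3.86 FPKM without a call.

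The remaining protein-coding members were enzymes, membrane proteins and transporters. Fam57a, a TLC domain membrane protein gene now named Tlcd3a, rose from 3.51 to 11.9 FPKM, and Glod4, a glyoxalase domain gene, from 14.4 to 33.5 FPKM. Another TLC domain gene, Tlcd2, stood at 7.93 and 10.5 FPKM without a call. Dbil5, an acyl-CoA binding protein gene known from testis, was listed at 0.506 and 2.47 FPKM, and its q of 0.0863 in the authors' deposited table missed the threshold with the largest implied standard error of the tested members, 0.92. Scarf1, a scavenger receptor gene, was low in both lines, at 0.253 and 0.612 FPKM, with no call. Slc43a2, an amino acid transporter gene, stood at 6.53 FPKM in STHdhQ7 and lower in STHdhQ111, at 4.03 FPKM, without a call. The last member without a test, 1700016K19Rik, was at 0.131 and 0 FPKM.

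The microRNA rows do not report mature microRNA, which is shorter than the fragments such a library keeps, and they say at most how many fragments fell on the hairpin. The host gene of miR-22, 2210403K04Rik (75275041 to 75280192), rose from 5.49 to 14.7 FPKM (log2 fold change 1.42, SE 0.47 and q = 0.0216 by the authors' deposited table). The Mir22 row shares that locus, all of its 36-base words also occur in other transcripts, and it was listed at 10.03 and 12.5 FPKM with the status LOWDATA. Mir132 and Mir212 were listed at 2.40 and 0.734 FPKM in STHdhQ7 and at 0 in STHdhQ111, and neither was called (q = 0.734 for both in the authors' deposited table). Their hairpins are 66 and 91 bases long in the RefSeq table, and they start less than 10 kb from Hic1. The number of fragments behind their values is unknown, so the 0 in STHdhQ111 is not read as a fall. Mir3971, inside the Slc43a2 locus, was listed at 0 in both lines.

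**Figure D2:**
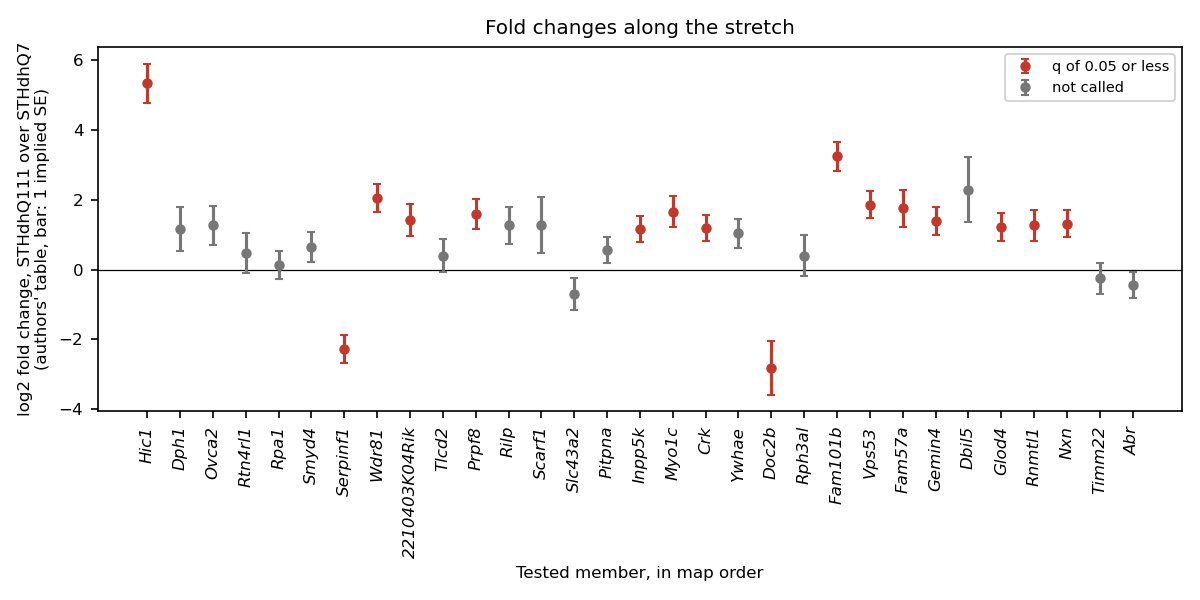
The log2 fold change of the tested members in map order, from the authors' table, with bars of 1 implied standard error; red points are called at a q of 0.05 or less and grey points are not, and Mir212 and Mir132 are left out because a value of 0 gives no fold change. The 8 members from Fam101b to Nxn all lie above 1, and Timm22 and Abr beside them lie below 0.

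Along the map, the higher values were not spread evenly, and the divisions given here were made after the values were seen. From Hic1 to Serpinf2, 1 of 9 tested members was called higher and 1 lower, and their summed FPKM was 172 in STHdhQ7 against 165 in STHdhQ111. From Wdr81 to Ywhae 6 of 12 tested members were called higher and none lower (8 and 0 at an unadjusted p under 0.05 in the authors' deposited table), and the sum went from 557 to 1271 FPKM. In the gap that follows, Doc2b and Rph3al are the only tested members. From Fam101b to Nxn all 8 members were tested, all had a ratio of 2 or more, and 7 were called higher, Dbil5 being the exception. The sum over these 8 went from 134.5 to 466 FPKM, a ratio of 3.47.

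The members just inside and the rows just outside the bounds were as follows. At the upper end Nxn had a ratio of 2.48, while Timm22, a gene of the mitochondrial inner membrane carrier translocase that starts at 76220669, was listed at 13.5 and 11.3 FPKM and Abr, a regulator of small GTPases that starts at 76230236, at 23.5 and 17.2 FPKM. Neither was called. Beyond them the nearest tested row outside, the Golgi SNARE gene Gosr1 (76540104 to 76577057), was listed at 18.5 and 16.7 FPKM. At the lower end the nearest row outside was Smg6, an endonuclease gene of nonsense-mediated decay (74739374 to 74977950), listed at 10.2 and 14.1 FPKM. It ends just before Hic1, and it was not called.

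**Figure D3:**
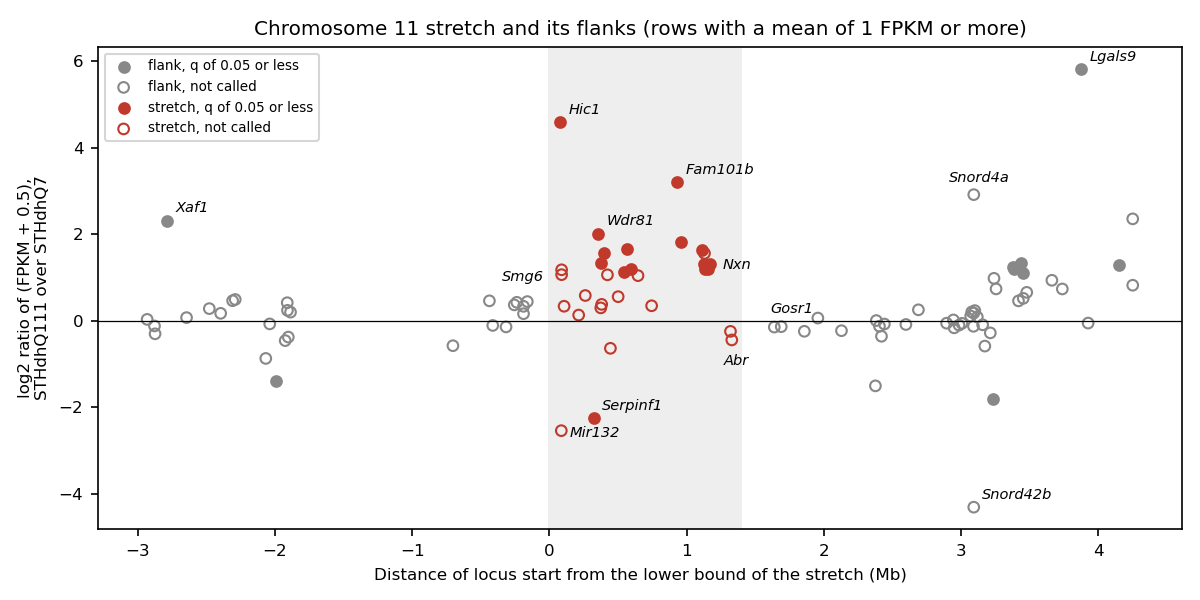
The log2 ratio of (FPKM + 0.5), STHdhQ111 over STHdhQ7, against the distance of each locus start from the lower bound of the stretch, for rows with a mean of 1 FPKM or more; grey shading marks the stretch, red points its members, grey points the flanks, and filled points are called. Of the 31 members drawn 26 lie above 0, the 4 nearest tested flank rows on each side lie between -0.24 and 0.45, and Lgals9 stands highest of the flank rows.

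In the flanks the values near the stretch were close to level. The median log2 ratio over the 72 flank rows with a mean of 1 FPKM or more was 0.10, so the stretch lay 1.04 above it on the log2 scale. This is a difference of the quantity the members were chosen on, given with no test. Of 28 tested rows in the lower flank, 1 was called higher, the interferon-induced Xaf1 (4.12 to 22.5 FPKM), and 2 lower, Spns2 (1.35 to 0.254 FPKM) and Gsg2 (3.59 to 1.05 FPKM). The 4 tested rows nearest below, Smg6, Tsr1, Srr and Sgsm2, were not called, and neither were the 4 nearest above, Gosr1, Cpd, Blmh and Ccdc55.

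The upper flank held a separate set of higher rows at its far side. Among the 28 tested rows that start below 78.1 Mb none was called higher and 1, Pipox, was called lower (0.519 FPKM and listed at 0). At an unadjusted p under 0.05 the authors' deposited table has 0 of these 28 higher and 1 lower. Among the 20 tested rows from 78.1 Mb on, 7 were called higher, namely Slc46a1, Sarm1, Poldip2, Tnfaip1, Ift20, Lgals9 and Wsb1, and 1 lower, Aldoc. Lgals9, the galectin 9 gene, went from 4.01 to 254 FPKM, while Poldip2 went from 29.7 to 71.8 FPKM and Tnfaip1 from 34.8 to 88.9 FPKM. The median log2 ratio was -0.08 over the near rows and 0.94 over the far ones, in each case those with a mean of at least 1 FPKM. The boundary at 78.1 Mb was drawn after the values were seen.

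Genes related to the members by family or complex but located elsewhere were listed to show whether the members moved with them. The list covers 22 families or complexes and 116 genes with a row. Of the 105 tested, 4 were called higher, 8 lower and 93 not, and the median log2 ratio of the 101 with a mean of 1 FPKM or more was -0.06. The share called higher in this list, 3.81%, lies near the 6.35% over all tested rows and says nothing particular about the list. In 13 of 24 comparisons the member's log2 ratio was above that of all its listed relatives with a mean of 1 FPKM or more, in 4 it was below all of them, and in 7 it lay within their range. Since the members were chosen for being high, these counts are descriptive.

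The members named next, Ywhae, Prpf8, Vps53, Gemin4 and Crk, each lay above all their listed relatives, so they do not stand for all 24 comparisons. The 4 below all of theirs were Serpinf1, Slc43a2, Abr and Doc2b. Members were chosen for being high and relatives were not, so the cases are descriptive. Ywhae was listed at 273 and 563 FPKM, whereas Ywhaz, the most abundant of the other 14-3-3 genes in STHdhQ7, was listed at 287 and 194 FPKM and Ywhag at 143 and 145 FPKM. None of the 6 listed 14-3-3 relatives was called, with log2 ratios from -0.56 to 0.10 in the 5 that reached a mean of 1 FPKM. At an unadjusted p under 0.05 in the authors' deposited table the count was 0 of 6. Prpf8 rose while its partners in the U5 particle, such as Snrnp200 (35.8 and 42.1 FPKM) and Eftud2 (61.3 and 48.6 FPKM), were not called. None of the 8 listed U5 and tri-snRNP genes was called, 1 was lower at an unadjusted p under 0.05 in the authors' deposited table, and their median log2 ratio was -0.43. The GARP partners of Vps53, with Vps52 at 25.4 and 28.9 FPKM, and the SMN complex partners of Gemin4, with Smn1 at 26.8 and 25.3 FPKM, were not called either, with 0 of 3 and 0 of 8 at an unadjusted p under 0.05 in the authors' deposited table. Crk rose, and 5 of its 7 listed relatives also had a log2 ratio above 0, with a median of 0.52 over the 7. Among these, Bcar1 was listed at 50.5 and 76.9 FPKM, Rapgef1 at 14.9 and 25.1 FPKM and Gab1 at 8.78 and 14.9 FPKM, none called. The paralog Crkl was listed at 19.5 and 17.3 FPKM, and the docking partner Nedd9 fell from 25.9 to 5.55 FPKM.

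Other families did change elsewhere. Rpa2, the second subunit of replication protein A, fell from 26.7 to 7.69 FPKM, whereas Rpa1 in the stretch was not called. Inpp5d fell from 8.38 to 0.606 FPKM and Synj2 from 14.2 to 5.67 FPKM. Relatives called higher included the amino acid transporter Slc43a3 (0.185 to 38.6 FPKM), Scarf2 (18.6 to 48.1 FPKM) and Rtn4rl2 (0.520 to 3.99 FPKM). The other relatives called lower were Serping1, Megf10, Rab27a and Lingo1.

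**Figure D4:**
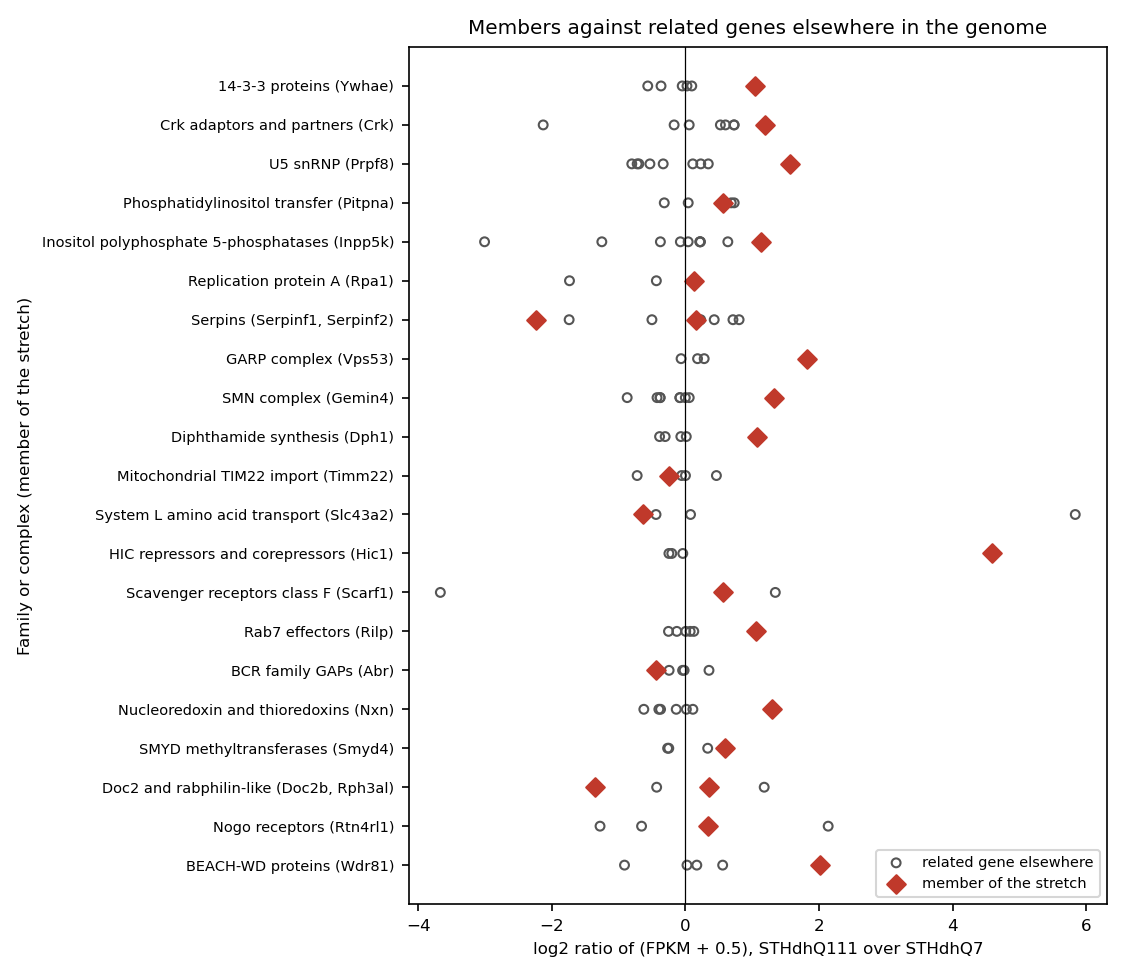
The log2 ratio of (FPKM + 0.5), STHdhQ111 over STHdhQ7, of each member (red diamonds) and of its relatives elsewhere in the genome with a mean of 1 FPKM or more (open circles), 1 row per family or complex, with that of Myo1c not drawn. In the 14-3-3, U5, GARP and SMN rows the relatives lie between -0.87 and 0.34 and the member lies above 1. These rows are among the 13 of 24 comparisons in which the member was above all its relatives. Members are drawn whatever their level.

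Sequence and layout were features that the rule did not use. RefSeq promoter windows, 300 bases from 250 before to 50 after the most upstream start, were found for 29 of the 37 members; Rtn4rl1, Scarf1, Doc2b, 1700016K19Rik and the 4 microRNAs had none in the table. Windows on both strands held called genes, with 7 of 15 plus-strand and 7 of 14 minus-strand members called higher. A CpG ratio was computed as observed over expected (CpG count times length over the product of C and G counts). Its median was 0.73 for the members, 0.82 for 62 flank windows and 0.39 for all 27025 genes. Flank windows were taken only from rows with a test or a mean of 1 FPKM or more. Members were taken whatever their status, and all genes whatever their level. The sets are therefore unlike, and no resemblance is read from these medians. The CpG ratio was above 0.5 in 13 of the 14 members called higher. Myo1c was the exception with 0.0796, and Fam101b had the highest value with 1.04. Among the 14 members with a window that were not called, 9 had a ratio above 0.5, and Serpinf1, which fell, had 0.158. The lower quartile over flank windows was 0.63, so most of those were above 0.5 too. Whether this ratio goes with the rise was not tested.

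Short motifs were counted in these windows on both strands, 7 in all, none of which contains another. The GC box GGGCGG was in 20 of 29 member windows (69.0%), in 75.8% of flank windows and in 35.9% of all windows. The CCAAT box was in 11 member windows (37.9%), in 27.4% of flank windows and in 38.0% of all. The E-box CACGTG was in 4 member windows (13.8%), in 8.06% of flank windows and in 7.24% of all. No member window held the interferon-stimulated response element (1.61% of flank windows and 3.49% of all), the NRF1 site (0 and 0.981%) or TATAAA (1.61% and 14.2%). The YY1 site AAGATGGC was in 2 member windows, those of the divergent neighbours Glod4 and Rnmtl1, whose windows overlap. That is 6.90% of member windows, against 17.7% of flank windows and 2.87% of all. A match describes letters only, and the flank windows come from the filtered rows named above.

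Divergent neighbours gave a closer look at shared sequence. In 4 pairs of members the RefSeq starts on opposite strands lie at most 49 bases apart, and their sequences overlap within the windows counted above. Vps53 and Fam57a, 32 bases apart, rose by ratios of 3.61 and 3.38. Glod4 and Rnmtl1, 36 bases apart, rose by ratios of 2.33 and 2.41. For Gemin4 and Dbil5, 40 bases apart, the ratios were 2.61 and 4.87, and only Gemin4 was called. Rpa1 and Smyd4, 49 bases apart, had ratios of 1.10 and 1.56 and neither was called. Within each pair the log2 fold changes of the authors' deposited table differed by less than the sum of the implied standard errors. This bound is wide. The 11 members called higher with a log2 fold change between 1 and 2 had a standard deviation of 0.24. Their median implied standard error was 0.40. Members that are not divergent neighbours can therefore meet the bound too, and it does not set the pairs apart.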

How the data were processed

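Polyadenylated RNA of both lines was made into cDNA with random primers and sequenced, per the labels' protocols. The submitters' processing notes name mm9, Bowtie 0.12.7, Cuffdiff without a version, Cufflinks 2.0.2 and TopHat 1.4.0; options were not given in sources used here. The deposited table holds FPKM per line, combined over replicates by the authors, with their log2 fold change, statistic, p-value and q-value, per the file headers. Whether replicates were separate cultures is not said, and the spread behind the authors' p-values may thus be technical. The deposited q equalled the Benjamini-Hochberg adjustment over the 12740 tested rows to within 2.2e-06.

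From these values FPKM ratios, log2 ratios with a pseudocount of 0.5 FPKM (which understates changes of low genes) and medians over rows with a mean of 1 FPKM or more were computed. Locus starts were raised by 1, since end minus start equalled the RefSeq length for 7132 rows. Every tested member is named. Flank rows were the 4 nearest on each side and the called ones, and relatives the called ones and up to 2 per family, some left out for length and 1 not reported here. The families and members were chosen with earlier results of these data known. Words of 36 bases were taken from the members' GENCODE M21 transcripts and searched on both strands in those of all other genes; promoters and microRNAs are RefSeq's on GRCm38.p6, and no coordinate was converted. The summaries of the stretch and flanks were tested on simulated fold changes, with a smaller pseudocount. The sequence steps and the comparison with relatives were not. Python 3.11.15, numpy 2.4.6 and pandas 2.3.3 were used.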

Additional observations from a re-analysis of the deposited data

How the results depend on the processing

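The authors' combined values allow no replicate to be left out, and no paired analysis was possible because each line has 1 combined value. The members' median log2 ratio of 1.14 lay between 0.89 and 1.20 under 11 alternatives (pseudocounts, filters, recentring, shared loci, bounds, the middle of the locus, the mean, and, chosen after seeing the data, without small RNA rows). Its distance from the flanks, 1.04, lay between 0.65, with means in place of medians, and 1.19 under 15 alternatives, the highest with the far side of the upper flank left out, which was also chosen after seeing the data. All of these stayed above 0, which the choice of members for high values made likely. They also stayed within 1 median implied standard error (0.44) of the reported value. That error is for single members and not for a median over members, so it is a loose bound. The count of 14 members called higher was 9 at a q of 0.01 and 4 with a Bonferroni adjustment of the authors' p-values. Both settings are stricter by construction. Under the other 7 alternatives the count lay between 13 and 21. The highest, 21 and 20, are members with a ratio of at least 1.5 and 2, with no call needed. The highest count by a q or p was 18, at an unadjusted p of 0.05 in the authors' deposited table. The share of members above 0 was 83.9% and at lowest 78.8%, over all tested rows. Depth is unknown, and low genes were the least precise: the implied standard error was 0.92 for Dbil5 and 0.77 for Doc2b, against a median of 0.44 over tested members.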
